A study of Caenorhabditis elegans with 10 samples.

Results

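Transcripts of nep-1 mutant larvae were compared with those of wild-type larvae of Caenorhabditis elegans. The series held 10 one-colour Affymetrix arrays of whole worms, and the comparison used the 4 arrays of stage L3, 2 from the mutant and 2 from wild-type. The other 6 arrays came from adults. The larval arrays were chosen by their titles, and each mutant array was read against the wild-type array of the same replicate number, so that pair 1 was mutant 1 against wild-type 1 and pair 2 was mutant 2 against wild-type 2. The mutant carried an allele of nep-1 obtained by EMS mutagenesis. The wild-type was the Bristol variety supplied by the Caenorhabditis Genetics Center. The replicate 1 arrays are described as BR2845L3 in the mutant and N2L3 in wild-type, whereas the descriptions of the replicate 2 arrays carry no strain name. Worms of both genotypes grew at 20 °C on NGM plates seeded with E. coli OP50, and total RNA was taken from whole bodies with Trizol. The position of the lesion and any outcrossing were not given in the sources used here. The titles call the replicates biological.

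nep-1 encodes a neprilysin, one of a family of membrane-bound zinc metallopeptidases that cut short peptides outside the cell, among them neuropeptides. In the nematode, neprilysins have been studied in the pharynx and the nervous system. A larva sheds and rebuilds its collagen cuticle at each moult, and transcripts for collagens, hedgehog-related proteins and moulting enzymes are known to rise and fall with that cycle.

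Levels are given on the log2 scale of the deposited RMA values, on which a difference of 1 is a 2-fold difference and a negative difference means lower in the mutant. After 77 controls had been left out, the arrays gave values for 22548 probe sets, each a group of short probes for 1 transcript or a few. A detection call deposited with each array states whether a probe set was present, marginal or absent. Present calls covered 11184 and 12196 probe sets on the mutant arrays, against 11766 and 12983 on the wild-type arrays. Arrays within a pair were more alike than arrays of 1 genotype: r over the probe sets of an array, which are no replicates, was 0.992 between mutant 1 and wild-type 1 and 0.974 between mutant 2 and wild-type 2, against 0.963 between the mutant arrays and 0.964 between the wild-type arrays. Across unlike numbers and genotypes, r was 0.957 between mutant 1 and wild-type 2 and 0.969 between mutant 2 and wild-type 1. The second of these also exceeded both values within a genotype. In bulk RNA of whole worms, fewer cells of a type and less RNA per cell cannot be told apart.

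In the deposited RMA values, most transcripts that differed in both pairs measured lower in the mutant larvae. Of the 22548 probe sets, 32 (0.142%) were lower in the mutant by at least 1 in both pairs and present on both wild-type arrays. None (0%) was higher by at least 1 in both pairs and present on both mutant arrays. The named genes among the 32 include nep-1 itself and genes for 2 UDP-glucuronosyltransferases, 3 cuticle collagens, a patched-related protein, 2 lipases and an acyltransferase. Among these, the collagen gene col-180 and the lipase gene lips-9 met the threshold of 1 with the deposited RMA values but with no other scaling. With a smaller difference of at least 0.5 in both pairs, 251 probe sets (1.11%) were lower and 8 (0.0355%) were higher, so that 96.9% were lower. Quantile normalisation gave 188 lower and 39 higher (82.8% lower), and the scaled signals deposited for the same arrays gave 168 lower and 179 higher (48.4% lower). These are counts without a test. In limma, which fitted a mean to each group over all 10 arrays and adjusted p-values by Benjamini-Hochberg, 0 probe sets (0%) passed the threshold of 0.05, and the smallest adjusted p was 0.603. At an unadjusted p under 0.05, 150 probe sets were counted, 70 higher and 80 lower. Because the fit pools the spread of all 10 arrays, each SE and p-value for larvae also reflects the spread among the adult arrays.

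**Figure D1:**
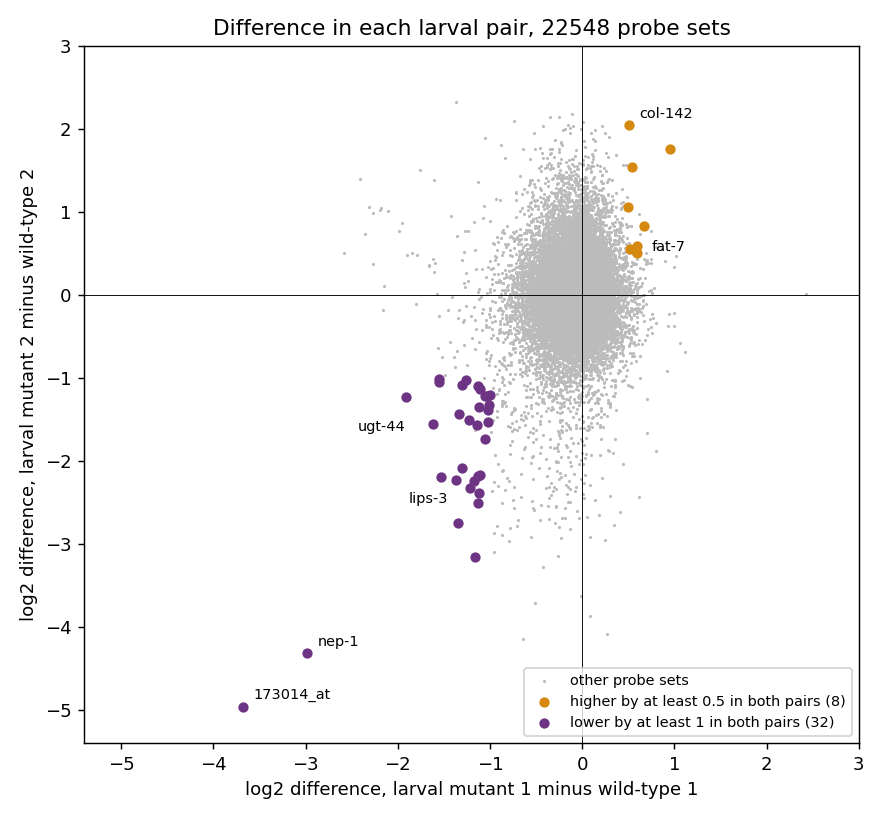
Each point is 1 probe set, placed by its log2 difference (mutant minus wild-type) in pair 1 on the horizontal axis and in pair 2 on the vertical axis. Purple points are the 32 probe sets lower by at least 1 in both pairs, orange points the 8 higher by at least 0.5 in both pairs, and nep-1 and the unnamed 173014_at lie far below the rest on both axes.

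The pairs differed in spread. Over all probe sets, the SD of the differences was 0.26 in pair 1 and 0.48 in pair 2. Pair 1 alone held 110 probe sets lower and 2 higher by at least 1, with the same presence rule, and pair 2 alone held 340 lower and 253 higher. The median difference over all probe sets was -0.08 in pair 1 and 0.01 in pair 2. Among the 9967 probe sets present on all 4 larval arrays it was -0.19 in pair 1 and -0.05 in pair 2, so that expressed transcripts as a whole sat slightly lower on mutant array 1 than on wild-type array 1. The pattern of differences was shared little between the pairs, with r = 0.076 over all probe sets and r = 0.0012 over those present on all 4 arrays, given as a description across probe sets that share arrays.

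The mutated gene itself gave the clearest named difference. The nep-1 probe set, 188537_s_at, measured 5.20 and 4.85 on the mutant arrays, against 8.19 and 9.17 on the wild-type arrays. It was called absent on both mutant arrays and present on both wild-type arrays, and the groups did not overlap. The differences were -2.99 in pair 1 and -4.31 in pair 2, and the limma estimate was -3.65 ± 0.45 (SE) with an adjusted p of 0.603. Because the mutant level was not above background, the 12.6-fold difference between the means is a bound in that respect alone. The difference was 7.94-fold in pair 1 and 19.9-fold in pair 2. Between the means it was 8.96-fold without wild-type array 2 and 17.6-fold without wild-type array 1. An exact two-sided permutation test of 2 against 2 arrays gave p = 0.333, the smallest p that its 6 arrangements allow. The probe set's place relative to the lesion was not analysed here.

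A probe set with no gene number, 173014_at, was singled out after its values were seen because its difference was even larger. It measured 3.95 and 4.01 on the mutant arrays, against 7.62 and 8.97 on the wild-type arrays. As with nep-1, it was absent on both mutant arrays and present on both wild-type arrays, with no overlap. The differences were -3.68 and -4.96, and the limma estimate of -4.32 ± 0.65 had an adjusted p of 1. The mean was 19.9-fold lower in the mutant, again a bound with respect to background alone. It was 12.5-fold without wild-type array 2 and 31.8-fold without wild-type array 1. The authors' change call was decreased in 4 of 4 pairings of larval arrays for both 173014_at and nep-1. With ugt-63, these were the 3 probe sets in which every mutant array lay at least 1 below every wild-type array.

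**Figure D2:**
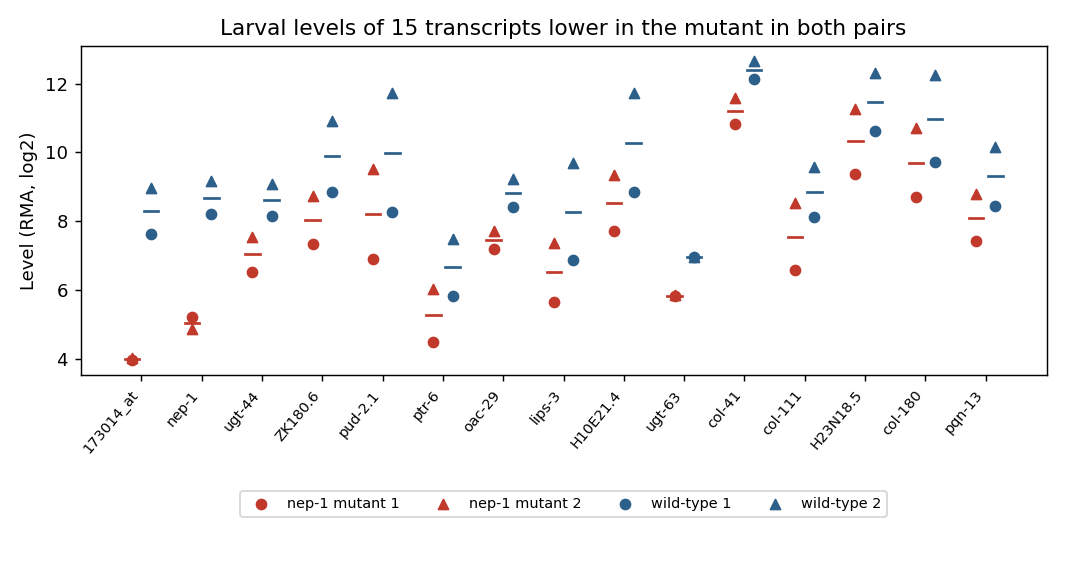
Levels (RMA, log2, vertical axis) on each larval array for 173014_at and the 14 named genes lowest in the mutant by the smaller of their pair differences, with red for the nep-1 mutant, blue for wild-type, circles for replicate 1, triangles for replicate 2 and a bar for the mean of 2 arrays. In most genes the triangle lies above the circle of the same colour, and nep-1, 173014_at and ugt-63 are those whose genotypes stand apart by at least 1 in every pairing.

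Enzymes that attach sugars to lipophilic compounds for their removal, the UDP-glucuronosyltransferases, had 3 named members, and all 3 were lower in both pairs by at least 0.5, with medians of -1.13 and -1.09 in the 2 pairs. Genes are named only from the authors' lists of changed transcripts. Of the 152 probe sets with a named gene, 80 were among the 251 lower by at least 0.5, against 1.11% of all probe sets. Counts within this and the later families are to be read against these shares. ugt-44 measured 6.53 and 7.54 on the mutant arrays, against 8.14 and 9.09 on the wild-type arrays. The genotypes did not overlap, and the differences were almost the same in both pairs, -1.62 and -1.55, which is 3.06-fold and 2.93-fold lower. The limma estimate for ugt-44 was -1.58 ± 0.45, with an adjusted p of 1. ugt-63 measured 5.81 and 5.85 in the mutant, against 6.94 and 6.94 in wild-type, the smallest spread within genotypes of the 32. Its differences were -1.13 and -1.09, again with an adjusted p of 1 in limma. ugt-6 was lower by less, -0.87 and -1.05, and its genotypes overlapped. None of the 3 passed the limma test.

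Other enzymes of detoxification and defence were lower by smaller amounts but with arrays that stood apart. Among all probe sets, both mutant arrays lay below both wild-type arrays in 2845 (12.6%) and above both in 1719 (7.62%), and the counts of arrays standing apart are to be read against these shares. The glutathione S-transferases, which conjugate glutathione to reactive compounds, had 4 named members, and the arrays of all 4 stood apart, 3 lower and 1 higher in the mutant. gst-13 measured 8.31 on both arrays of the mutant, against a mean of 9.06 ± 0.09 (SD, n = 2) in wild-type. Both mutant values lay below both wild-type values, and the estimate was -0.75 ± 0.26 with an adjusted p of 1 in limma. gst-10 differed by -0.85 and -0.76, and gst-6 by -0.60 and -0.44. The cytochrome P450 gene cyp-35C1, whose enzyme oxidises lipophilic compounds, measured 7.66 and 7.75 in the mutant, against 8.34 and 8.53 in wild-type. The lysozyme gene lys-2 measured 10.04 and 10.39 in the mutant, against 10.76 and 11.03 in wild-type. In both genes every mutant array lay below every wild-type array, by less than 1. For the Hsp70-family gene F44E5.5, which is heat-inducible, the probe set of higher mean measured 7.11 and 9.57 in the mutant, against 8.68 and 10.20 in wild-type. Its genotypes overlapped, and without mutant array 1 its difference was 0.13 in place of -1.10. The other F44E5.5 probe set, one of the 32, measured 6.03 and 7.97 in the mutant, against 7.94 and 9.20 in wild-type. Its genotypes overlapped by 0.035, its differences were -1.91 and -1.22, and its mean difference of -1.57 was between -2.54 and -0.59 with each array left out.

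Cuticle collagens, the structural proteins of the worm's exoskeleton, were the largest named family. Of 13 named collagens, 12 were lower and 1 was higher in both pairs, 7 were lower by at least 0.5 and 3 by at least 1, with medians of -0.87 in pair 1 and -1.09 in pair 2. All named genes come from the authors' lists of transcripts called changed on arrays of this series, so the direction of a list is not independent evidence. Over all probe sets, 7208 (32%) were lower and 4094 (18.2%) higher in both pairs by any amount. col-41 measured 10.83 and 11.57 on the mutant arrays, against 12.13 and 12.66 on the wild-type arrays. It was the most abundant of the 14 named genes with the lowest smaller difference, its genotypes did not overlap, and its differences were -1.30 and -1.09. The limma estimate for col-41 was -1.20 ± 1.47, so its SE exceeded its size. That SE pools all 10 arrays, and the spread of col-41 was larger in adults. Its SDs were 1.49 in adult mutants and 2.58 in adult wild-type, against 0.53 and 0.37 in larvae. col-111 measured 6.58 and 8.52 in the mutant, against 8.13 and 9.58 in wild-type, and col-180 measured 8.69 and 10.72 in the mutant, against 9.71 and 12.25 in wild-type. Both overlapped between genotypes, because mutant array 2 lay above wild-type array 1. col-48 differed by -0.87 and -2.51, and without wild-type array 2 its difference was 0.098 in place of -1.69. Of the collagen genes that shape the body, rol-6 differed by -0.89 and -0.41, dpy-5 by -0.64 and -0.45 and sqt-2 by -1.12 and -0.05. In pair 2 these differences were smaller than the collagen median. col-142 went the other way and is described with the genes that measured higher.

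The hedgehog-related and patched-related genes encode secreted proteins and sterol-sensing membrane proteins that in nematodes are tied to moulting and cuticle formation. All 5 named members were lower in both pairs, 4 of them by at least 0.5, with medians of -1.25 and -0.84. By the probe set that represents each gene, the arrays of none of the 5 stood apart. ptr-6, a patched-related gene, measured 4.49 and 6.03 in the mutant, against 5.83 and 7.47 in wild-type. It was absent on mutant array 1 and present on the other 3 arrays, and mutant array 2 lay just above wild-type array 1. Its differences of -1.34 and -1.44 were matched in direction by its second probe set, with -1.30 and -2.08. Of the others, grl-5 (ground-like) differed by -1.39 and -0.75, ptr-18 by -1.25 and -0.84, and grd-5 (groundhog-like) by -0.90 and -1.13. Their limma estimates all had an adjusted p of 1.

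Genes of the pharyngeal cuticle and of the moult measured lower as well. All 4 named abu and pqn genes, which encode repetitive proteins of the pharyngeal lining, were lower in both pairs, with medians of -0.83 and -1.22. pqn-13 measured 7.43 and 8.78 in the mutant, against 8.45 and 10.16 in wild-type, and the genotypes overlapped. abu-14 differed by -0.79 and -1.92, abu-13 by -0.87 and -0.44 and abu-8 by -0.35 and -1.07. The 4 named genes of moulting and the apical matrix were lower in both pairs too, with medians of -0.86 and -0.96. Among them, lpr-7, a lipocalin-related gene, measured 6.33 and 6.47 in the mutant, against 7.29 and 9.34 in wild-type. Its genotypes stood apart, and its estimate of -1.92 ± 0.73 was -0.89 without wild-type array 2. bus-5, a gene of the worm's surface coat, differed by -0.94 and -0.86. The astacin metalloprotease gene nas-6 differed by -0.78 and -1.06 and the moulting gene mlt-8 by -0.46 and -0.17. The sign of nas-6 turned without mutant array 1 (0.061) and without wild-type array 2 (0.20), and so did that of mlt-8 (0.28 and 0.13).

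Genes of lipid metabolism were mostly lower, with 1 desaturase higher. Of 11 named members, 9 were lower in both pairs, 1 was higher and 1 had opposite signs, and the medians were -0.87 and -0.85. The list was drawn up by gene symbol and counts pud-2.1, for which no role in lipid metabolism is given here. pud-2.1 measured 6.89 and 9.51 in the mutant, against 8.26 and 11.73 in wild-type. It differed by -1.36 and -2.22, but its replicates lay further apart than its genotypes, which overlapped. The lipase-related gene lips-3 measured 5.64 and 7.37 in the mutant, against 6.86 and 9.70 in wild-type, and was absent on mutant array 1. Its genotypes overlapped too. lips-9 measured 7.05 and 8.64 in the mutant, against 8.05 and 9.85 in wild-type, and overlapped likewise. The acyl-CoA synthetase gene acs-20 differed by -0.87 and -0.99. acox-1.2, an acyl-CoA oxidase gene of peroxisomal fatty acid breakdown, measured 8.17 and 8.35 in the mutant, against 9.18 and 9.19 in wild-type. Its genotypes did not overlap and each differed little between replicates. lbp-3, which encodes a fatty acid binding protein, measured 8.93 and 9.44 in the mutant, against 10.02 and 9.87 in wild-type, and stood apart as well. The fatty acid elongase gene elo-3 differed by -0.86 and -0.85, and the fatty acid synthase gene fasn-1 by -0.30 and 1.66, with opposite signs. oac-29, a member of the O-acyltransferase family, measured 7.18 and 7.72 in the mutant, against 8.41 and 9.23 in wild-type. Its genotypes did not overlap, and its estimate was -1.37 ± 0.54 with an adjusted p of 1 in limma.

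Other named genes of large difference have no family here. ZK180.6 measured 7.33 and 8.72 in the mutant, against 8.86 and 10.91 in wild-type, a difference of -1.53 and -2.19 with no overlap. H10E21.4, titled a calcium-binding protein in the authors' deposited table, measured 7.72 and 9.34 in the mutant, against 8.84 and 11.73 in wild-type, and its second probe set gave differences of -1.35 and -2.75 beside -1.12 and -2.39. H23N18.5 measured 9.38 and 11.27 in the mutant, against 10.63 and 12.29 in wild-type. The genotypes of H10E21.4 and H23N18.5 overlapped, again because mutant array 2 lay above wild-type array 1. R12E2.14 was singled out after its values were seen, because 1 of its probe sets, 172497_x_at, was among the 32. It measured 6.34 and 8.58 in the mutant, against 7.50 and 11.74 in wild-type, with overlap, and differed by -1.16 and -3.16. Its mean difference of -2.16 was -0.042 without wild-type array 2. The R12E2.14 probe set of higher mean differed by -0.46 and -2.71, and without wild-type array 2 its mean difference was 0.23 in place of -1.59.

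The authors' deposited table of transcripts decreased in 4 of 4 pairings named nep-1, ugt-44, oac-29, lpr-7 and lbp-3 and 5 further genes. cysl-2, a gene of the cysteine synthase family, measured 7.38 and 8.14 in the mutant, against 8.81 and 8.71 in wild-type. All mutant values lay below all wild-type values, with differences of -1.44 and -0.57 and an adjusted p of 1 in limma. W02F12.2 measured 6.10 and 6.05 in the mutant, against 7.08 and 8.41 in wild-type. With -0.98 and -2.36 it lay just outside the threshold of 1 in both pairs, as pqn-13 with -1.02 and -1.38 lay just inside. nspe-1, of a nematode-specific peptide family, differed by -0.92 and -1.40, C35A5.3 by -1.04 and -0.70, and C12D5.9 by -1.29 and -0.61. On the deposited scaled signals nspe-1 differed by 0.041 in pair 1, so that its direction there was lost.

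No named gene was higher by 1 in both pairs. fat-7, which encodes a stearoyl-CoA desaturase that makes oleic acid, measured 10.80 and 11.07 in the mutant, against 10.21 and 10.47 in wild-type. Both mutant arrays lay above both wild-type arrays, and both pairs differed by 0.59, or 1.51-fold. The limma estimate for fat-7 was 0.59 ± 0.96 with an adjusted p of 1. Its SDs were 0.18 in larval mutants and 0.19 in larval wild-type, against 1.90 and 0.41 in adults, and the SE pools all 10 arrays. The collagen gene col-142 measured 9.01 and 9.29 in the mutant, against 8.51 and 7.24 in wild-type, and was called absent on wild-type array 2. C15A11.7, titled an amine oxidase in the authors' deposited table, measured 7.75 and 7.19 in the mutant, against 7.21 and 5.65 in wild-type. The groups of col-142 did not overlap and those of C15A11.7 overlapped slightly. fat-7, col-142 and C15A11.7 were the 3 named genes among the 8 probe sets higher by at least 0.5 in both pairs. The probe set with the largest smaller difference of the 8, 174073_at, is on the authors' lists without a gene and was singled out after its values were seen. It measured 8.46 and 9.72 in the mutant, against 7.51 and 7.97 in wild-type, and was present on all 4 arrays. Its genotypes did not overlap, its differences were 0.96 and 1.75, and the limma estimate of 1.36 ± 1.78 had an adjusted p of 1. It was the 1 probe set higher by at least 1 in both pairs with quantile normalisation, with median centring and with centring on present probe sets.

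Smaller differences in this direction were seen in genes of several kinds. tbb-6, a beta-tubulin gene, measured 7.03 and 6.73 in the mutant, against 6.66 and 5.67 in wild-type, without overlap. gst-20 measured 8.23 and 8.85 in the mutant, against 7.84 and 8.23 in wild-type, and its lower mutant array lay just above its higher wild-type array. Unlike the 3 other glutathione S-transferases named, it was higher in both pairs, by 0.39 and 0.62. R11F4.1, titled a glycerol kinase in the authors' deposited table, differed by 0.42 and 0.76. anc-1, which encodes a giant protein that anchors nuclei to the cytoskeleton, differed by 0.36 and 0.72, and Y41G9A.5 by 0.43 and 1.28. Among members of the other lists, the muscle kettin gene ketn-1 differed by 0.21 and 1.45, the transcription factor gene atf-8 by 0.26 and 1.71, scl-5, which encodes a secreted cysteine-rich protein of the SCP family, by 0.30 and 1.02, and the neuropeptide-like gene nlp-8 by 0.22 and 0.15. The arrays of these 4 genes stood apart, and their adjusted p in limma was 1.

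**Figure D3:**
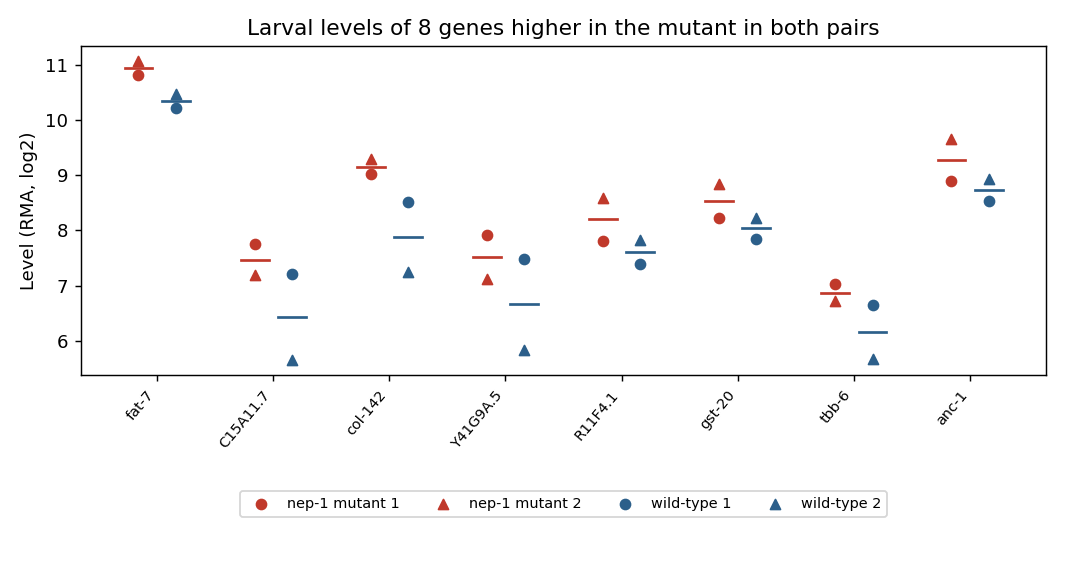
Levels (RMA, log2, vertical axis) on each larval array for the 8 named genes highest in the mutant by the smaller of their pair differences, with red for the nep-1 mutant, blue for wild-type, circles for replicate 1, triangles for replicate 2 and a bar for the mean of 2 arrays. The differences are smaller than those of the lower genes, and fat-7 differed by 0.59 in each pair.

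Probe sets outside the authors' lists made up 6 of the 32 and 152 of the 251 that were lower, and 4 of the 8 that were higher. The files give no gene for any of them. The 152 had median differences of -0.63 in pair 1 and -0.88 in pair 2. The lowest probe set outside the lists was 172927_x_at, which measured 6.60 and 6.88 in the mutant, against 7.74 and 8.44 in wild-type. It was present on both wild-type arrays and on neither mutant array, where it was marginal and absent. The next, 180841_at, measured 6.50 and 7.34 in the mutant, against 7.62 and 8.69 in wild-type, and was present on all 4 arrays. In both, every mutant array lay below every wild-type array, and the authors' call was decreased in 1 of 4 pairings. On the higher side, 191421_at measured 6.17 and 5.81 in the mutant, against 5.65 and 5.26 in wild-type, without overlap. 179325_at measured 5.40 and 7.85 in the mutant, against 4.73 and 7.02 in wild-type, and its replicates lay further apart than its genotypes. Its sign turned without mutant array 2 (-0.48) and without wild-type array 1 (-0.39). Of the 32, 18 (56.2%) were probe sets whose suffix marks probes shared between transcripts, against 29.8% of all probe sets and 40.7% of those present on both wild-type arrays. Their signal can come from more than 1 gene.

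Detection calls and levels gave different pictures. Present on both wild-type arrays and absent on both mutant arrays were 114 probe sets (0.506%), and the reverse held for 23 (0.102%). The 114 had median differences of only -0.15 and -0.18, 54 of them were lower in both pairs, 4 by at least 0.5 and 2 by at least 1. These 2 were nep-1 and 173014_at. The only other named gene among the 114 was gtnt-58, which measured 3.66 and 4.31 in the mutant, against 4.02 and 5.54 in wild-type. Its levels overlapped near the bottom of the scale. The differences were -0.36 and -1.23, and without wild-type array 2 the difference of the means was -0.036 in place of -0.80. None of the 23 was named or was higher by 0.5 in both pairs, and their median differences were 0.07 and 0.17. The wild-type array of each pair also had more present calls than its mutant array, by the totals given above, and the part of this in the 114 and 23 was not tested.

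The levels of the lower transcripts are bounded by the rule that they be present on both wild-type arrays, which few probe sets of low level meet. Ranked by mean over the 10 arrays and split into 4 classes of 5637 probe sets by rising level, the 32 fell 0, 3, 19 and 10 into these classes, and the 251 fell 3, 27, 133 and 88. Of the probe sets present on both wild-type arrays, 246, 1299, 4049 and 5391 lay in these classes, and 1.22%, 2.08%, 3.28% and 1.63% of them were among the 251. Probe sets detected in wild-type only lay lower, with 31, 61, 17 and 5 in the same classes.

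The 32 probe sets varied about as much between replicates as between genotypes. Replicate 2 lay above replicate 1 in 31 of the 32 in the mutant and in 31 in wild-type, with a median gap of 1.31 in the mutant and 1.57 in wild-type. The exceptions were nep-1 in the mutant and ugt-63 in wild-type. Over all probe sets the same gap was 0.08 in the mutant and -0.04 in wild-type, and over those present on both wild-type arrays 0.24 and 0.12. The genotype difference of the 32 was larger in pair 2 than in pair 1 in 25 of the 32. The arrays of both genotypes stood apart in 15. ugt-63 (0.04) and 173014_at (0.06) had the smallest gaps between replicates among the 32 in the mutant. Read in crossed pairs, mutant 1 against wild-type 2 and mutant 2 against wild-type 1, 7 probe sets were lower by at least 1 in both, and 3 of them were among the 32. The authors' own decreased calls for the 32 numbered 28 for mutant 1 against wild-type 1, 30 for mutant 2 against wild-type 2 and 28 for mutant 1 against wild-type 2, but 5 for mutant 2 against wild-type 1. Over all 22548 probe sets, decreased calls in these comparisons numbered 538, 1134, 1138 and 1215 in the same order. Over the whole array, the authors' call was decreased in both pairs for 149 probe sets (0.661%) and increased in both for 45 (0.2%). In both crossed pairs it was decreased for 19 (0.0843%) and increased for 7 (0.031%).

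**Figure D4:**
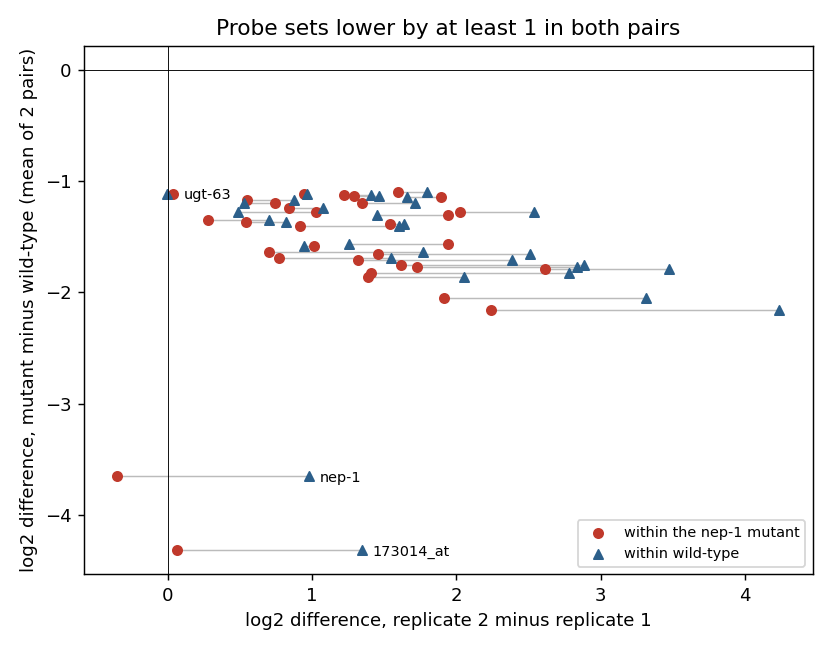
For each of the 32 probe sets lower by at least 1 in both pairs, the horizontal axis gives the log2 difference of replicate 2 minus replicate 1 within the nep-1 mutant (red circles) and within wild-type (blue triangles), joined by a line, and the vertical axis gives the mean of the pair differences. Nearly all points lie to the right of 0, with 31 of 32 positive in each genotype.

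Markers of the moult and the cuticle moved with the replicates as well. For the 2 named genes of the larval moult cycle list, mlt-8 and ptr-6, the summed scaled signal was 2624.0 and 5020.5 in the mutant, against 3170.7 and 6243.8 in wild-type. Nearly all of this sum was mlt-8, as ptr-6 alone gave 76.1 and 112.6 in the mutant, against 127.9 and 364.1 in wild-type. For rol-6, the named gene of the adult cuticle list, the scaled signal was 3546.7 and 7830.2 in the mutant, against 5322.2 and 10763.8 in wild-type. In these arrays rol-6 was higher in larvae than in adults, so it is not read here as a marker of the adult stage. Its mean levels were 11.67 in larval mutants and 12.32 in larval wild-type, against 8.18 and 8.68 in adults. The 13 collagens, rol-6 among them, summed to 20780.9 and 47682.5 in the mutant, against 30312.4 and 96155.1 in wild-type. In each sum both replicate 2 arrays lay above both replicate 1 arrays, and within each pair the mutant lay below wild-type. The lists of vitellogenin, sperm, germline, intestine, and seam and hypodermis markers had no named member, so the labelled stage and tissue could not be checked with them here. The mean of the 3' minus 5' differences of 5 worm control genes, a measure of RNA integrity, was 0.28 and 0.61 in the mutant, against 0.29 and 0.36 in wild-type. The part of stage and of RNA integrity in the lower transcripts was not tested.

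The balance of lower and higher transcripts depended on the scaling. At a difference of at least 0.5 in both pairs, centring each array on the median of the probe sets present on all 4 arrays, a choice made after seeing the data, gave 134 lower and 30 higher (81.7% lower). Of the 168 lower in the scaled signals, 99 were among the 251. At a difference of at least 1, the 32 lower probe sets became 13 with centring on present probe sets and 15 with scaled signals, of which 6 were among the 32. The 6 were nep-1, 173014_at, ugt-44, ZK180.6, pud-2.1 and the unnamed 181055_at. The 13 included nep-1, 173014_at, ugt-44, ZK180.6, pud-2.1, ptr-6, oac-29, lips-3, col-41 and col-111. H10E21.4 was among them by its second probe set alone. Its probe set of higher mean differed by -0.93 in pair 1 with this centring. col-180, pqn-13 and lips-9 were not lower by at least 1 in both pairs with any other scaling, nor in crossed pairs. In both pairs, 12 of the 13 named collagens, 5 of the 5 hedgehog-related and patched-related genes and 3 of the 3 UDP-glucuronosyltransferases were lower with each of the 4 other scalings, quantile normalisation and median centring included. Named genes come from the authors' lists of transcripts called changed on arrays of this series, so a direction kept under rescaling is not independent evidence. On the lipid list, which counts pud-2.1, 9 genes were lower with the 3 scalings of the RMA values and 8 with scaled signals.

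**Figure D5:**
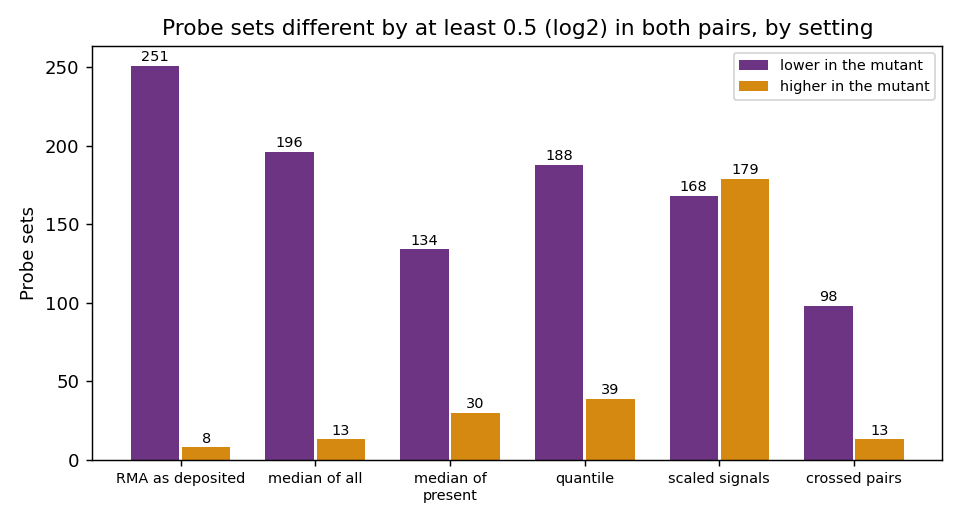
Numbers of probe sets (vertical axis) lower (purple) and higher (orange) in the mutant by at least 0.5 on the log2 scale in both pairs, for the RMA values as deposited and for each array centred on the median of all probe sets, on that of the probe sets present on all 4 arrays, after quantile normalisation, for the scaled signals and for crossed pairs. Lower probe sets outnumber higher ones 251 to 8 in the RMA values, and the numbers are 168 and 179 in the scaled signals.

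The adult arrays, which the counts within larval pairs did not use, showed a lower level for nep-1 and 173014_at. nep-1 measured 5.05, 5.10 and 5.42 on the 3 adult mutant arrays, against 6.01, 6.85 and 7.32 on the 3 adult wild-type arrays, a difference of -1.54 ± 0.37. 173014_at measured 5.74, 5.05 and 5.81 in adult mutants, against 6.01, 7.38 and 8.05 in adult wild-type, a difference of -1.61 ± 0.53. In both, all 3 mutant arrays lay below all 3 wild-type arrays, and these were the 2 of the 32 that were lower by at least 1 in adults. Of the 10985 probe sets present on both larval wild-type arrays, 119 had adult arrays apart in this direction. In the same 10985, 15 were lower by at least 1 in adults. The 32 as a whole had a median adult difference of -0.13, and 18 (56.2%) were lower, beside a median of -0.02 and 53.9% lower over all probe sets present on both larval wild-type arrays. ugt-44 differed by -0.40 ± 0.37 and fat-7 by -0.58 ± 0.78 in adults, the second opposite in sign to its larval difference. The adult sign of fat-7 hung on adult mutant array 1, its lowest adult array. Adult mutant arrays 2 and 3 measured 11.64 and 10.80 for fat-7, both above the adult wild-type mean of 10.73. A reversal between stages is therefore not read from fat-7. The difference between stages was tested as an interaction in limma, and 0 probe sets passed the threshold, with 92 at an unadjusted p under 0.05.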

How the data were processed

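Total RNA of whole worms was labelled with biotin by a one-cycle 3' IVT protocol and hybridised to Affymetrix arrays, per the labels. The deposited log2 values are those of RMA, according to the submitters' processing notes, where the authors state no version. Per the file headers, the deposited comparison table of the larval arrays also holds scaled signal intensities, detection calls and change calls for pairings of arrays. Its other 14 columns of values and 60 columns of the adult table were not used. The small number of arrays limits the precision.

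RMA values were not normalised again. With limma 3.58.1 (R 4.3.3), group means were estimated from the 10 arrays together, leaving 6 residual degrees of freedom, for the larval contrast mutant minus wild-type, two-sided, with Benjamini-Hochberg adjustment over 22548 probe sets after 77 controls were left out. Scripts were tested on simulated data. Tables were read with Python 3.11.15. Scaled signals were used as log2 after adding 16. A probe set absent on both mutant arrays was given the higher of its own value and the lowest value of a present probe set on each array, for a bound. For nep-1, gtnt-58 and 173014_at this left the mutant mean unchanged.

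Genes are named through gene numbers in the authors' lists of changed transcripts, matched to a RefSeq gene table of assembly WBcel235. Of 196 probe sets on those lists, 152 matched 1 gene, 4 several genes and 3 a number the table lacks, while 37 had no number. This gave 145 genes, each represented by its probe set of highest mean. The rule named nep-1, the 14 genes lowest and 8 highest by the smaller of their pair differences, up to 4 members of each gene list, genes detected in 1 genotype only, the 5 lower and 3 higher genes of highest level, the 2 lowest and 2 highest unnamed probe sets outside the lists, and the genes decreased in 4 of 4 pairings. Further members of the lists are given as examples, and 173014_at, 181055_at, 174073_at, R12E2.14 and the other F44E5.5 probe set were added after their values were seen. Of 24 gene lists, 19 had a named member. The comparison's members and lists were chosen with earlier results of these data known. Alternatives were other scalings, filters, samples, pairings and variance models, and leaving out each array. No sequence or coordinate is given, since probe and promoter sequences were not used here.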

Additional observations from a re-analysis of the deposited data

How the results depend on the processing

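In limma, 0 probe sets passed under every alternative run (other scalings and filters, larvae alone, variance model, replicate block, arrays left out), with 53 to 799 at an unadjusted p under 0.05. The smallest adjusted p among them was 0.0685, without wild-type array 1. With the replicate block and larval arrays alone, 0 passed and 689 had an unadjusted p under 0.05, 104 higher and 585 lower. Within equal-numbered pairs the arrays' deviations from their genotype's mean correlated at 0.56, but 2 pairs do not establish that the numbers pair the cultures. The 32 probe sets lower by at least 1 became 251 at 0.5, 15 with scaled signals, 7 with crossed pairs, 3 in all 4 pairings and 13 with centring on present probe sets, added after seeing the data. The 0 higher became 8 at 0.5, 1 with quantile normalisation, 1 with median centring, 7 with scaled signals and 1 with centring on present probe sets. For detection in 1 genotype only, 114 in wild-type became 4 and 23 in the mutant became 0 where a difference of 0.5 was also asked, and the 23 became 36 with marginal calls as present. The nep-1 estimate ran from -4.14 to -3.16 when each array was left out. Leaving out 1 array reversed nas-6 (-2.04 to 0.20), the F44E5.5 probe set of higher mean (-2.33 to 0.13), mlt-8 (-0.91 to 0.28), col-48 (-3.48 to 0.098) and 179325_at (-0.48 to 1.98), and moved 45 of the 58 named genes and probe sets over 1.5 times. Their 406 values under the 7 other settings of the fit kept direction and call. Larvae alone, the replicate block and the variance model leave the difference of the means as it is, so only the other scalings could have changed a direction. As 0 probe sets passed in any setting, the call had no room to change. Counts over both pairs have no value with an array left out. For transcripts near background, as gtnt-58, detection limits the difference.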
